A study of Mus musculus with 9 samples.

Results

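Gene expression in CD24negTomato+ cells was compared with that in Tomatoneg cells, both sorted from the small intestine of NFKO mice, across all expressed genes and across lists of genes grouped by cell type or pathway. The comparison used 6 of the 9 bulk RNA-Seq libraries of the study, 3 biological replicates of each population, and 13420 of the 35013 listed genes, those whose normalized count averaged at least 10 over the 6 libraries. All 6 libraries came from mice aged 4 to 6 weeks with the genotype Neurog3Cre-FoxO1 f/f; Rosa26tdtomato, in which a Cre recombinase driven by Neurog3 removes floxed FoxO1 and switches on the red reporter Tomato. Tomato+ cells therefore descend from cells in which Cre had been active, and Tomatoneg cells are the other cells of epithelial preparations of the same genotype. Lymphocyte genes, described below, were higher in the Tomatoneg libraries. CD24neg means that the Tomato+ cells lacked surface CD24 in the sort, whereas the Tomatoneg group was not split by CD24 in the labels. Cells were stained for Epcam and CD24, RNA was enriched by poly-A capture, and no library of mice with intact FoxO1 was part of the comparison, so the values describe lineage and CD24 gate within 1 genotype.

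Neurog3 encodes the basic helix-loop-helix factor that commits crypt progenitors to the endocrine fate. Its short expression in progenitors means that the lineage label also reaches some goblet and Paneth cells. Enteroendocrine cells store peptide hormones in dense-core granules with granins and release them when nutrients raise intracellular calcium. Goblet cells make heavily O-glycosylated mucus, Paneth cells release antimicrobial peptides at the crypt base, tuft cells are chemosensory, and enterocytes carry the digestive and absorptive load.

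The sort and the targeted gene were checked first. Values are normalized counts, given throughout for replicates 1, 2 and 3 of each population in that order. Foxo1 had 467, 274 and 371 in CD24negTomato+ and 695, 518 and 424 in Tomatoneg libraries, so it was present in both populations and the ranges overlapped (log2 fold change -0.56, standard error 0.33, adjusted P = 0.427). Kallisto counts per gene do not separate the floxed part of Foxo1 from the rest, and the value does not measure recombination. Cd24a, which encodes the antigen of the gate, had 993, 2054 and 1689 in CD24negTomato+ and 2944, 5782 and 3506 in Tomatoneg libraries, lower in every CD24negTomato+ library (log2 fold change -1.37, adjusted P = 0.115, and 0.0133 with the replicate number as a block). Epcam, the antigen of epithelial cells, had 28799, 28864 and 27920.3 in CD24negTomato+ and 34966, 26903 and 23036 in Tomatoneg libraries, and the keratin Krt8 had 111969, 125274 and 153266 in CD24negTomato+ and 104991, 110167 and 170714 in Tomatoneg libraries. Neurog3 itself had 14.6, 19.6 and 41.2 in CD24negTomato+ and 80.2, 123 and 147 in Tomatoneg libraries, with no overlap between the populations and higher values in Tomatoneg cells (log2 fold change -2.26, adjusted P = 0.126, 0.0673 with the block).

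Depth and library quality were not equal. The estimated depth was 29962312 to 37132884 reads in CD24negTomato+ and 19157916 to 24242689 reads in Tomatoneg libraries, and 3 reads, taken as the limit of detection, corresponded to a normalized count of 2.22 to 2.83 and of 3.23 to 3.99. Tomatoneg replicate 1 stood apart, with 13025 genes above 0 against 15644 to 17360 in the other libraries and Pearson's r of 0.818 and 0.850 across genes with the other Tomatoneg libraries, which had 0.924 with each other. It also held more zeros, since 1390 of 13420 tested genes were listed at 0 in it, against 180 and 356 in Tomatoneg replicates 2 and 3. Of 163 tested members of 7 endocrine lists 52 were listed at 0 in replicate 1, against 8 and 16 in replicates 2 and 3. Counts of genes are therefore also given without Tomatoneg replicate 1. Of markers of other cells, Pdgfra (stroma) was 0 in the CD24negTomato+ libraries and at most 55.5 in Tomatoneg libraries, Mafa (islet beta cells) reached at most 19.3, and Cpa1 (pancreatic acini) at most 49.0 with 0 in Tomatoneg replicate 1. The list of islet genes, described below, was mostly higher in CD24negTomato+ cells, with 11 of 12 log2 fold changes above 0. Csf1r (macrophages) had 15.7 to 69.6 in CD24negTomato+ and 0 to 22.8 in Tomatoneg libraries, and Pecam1 (endothelium) had 242 to 710 and 169 to 764. Alas2 (red cells) had 73.2, 10.9 and 47.6 in CD24negTomato+ and 0, 169 and 174 in Tomatoneg libraries, and Cd79a (B cells) had 1.89, 1.49 and 15.5 in CD24negTomato+ and 44.6, 76.8 and 175 in Tomatoneg libraries. The lymphocyte gene Cd3e had 37.6, 11.3 and 43.5 in CD24negTomato+ and 110.1, 346 and 212 in Tomatoneg libraries, and its list is described with the other lymphocyte genes below. In bulk samples, fewer cells of a type and less RNA per cell cannot be told apart.

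Differential expression was tested with limma on log2(normalized count + 1), first without pairing and then with the replicate number as a block, called the paired fit. A gene passed when its Benjamini-Hochberg adjusted P over all 13420 genes was below 0.05. In the unpaired fit 134 genes (0.999%) were higher and 43 (0.32%) lower in CD24negTomato+ cells, 1.32% of the tested genes in all. In the paired fit 582 genes (4.34%) were higher and 397 (2.96%) lower, 7.3% in all, and all 177 genes of the unpaired fit were among them. Without Tomatoneg replicate 1 the unpaired counts were 535 and 381. Leaving out CD24negTomato+ replicate 1, 2 or 3 left 18, 8 and 40 higher and 2, 1 and 4 lower genes, and leaving out Tomatoneg replicate 2 or 3 left 124 and 99 higher and 4 and 8 lower genes. With libraries scaled to equal totals the unpaired counts were 98 and 60 and the paired counts 477 and 822. After quantile normalization the unpaired counts were 304 and 190 and the paired counts 856 and 783. The share of higher against lower genes thus depends on the scaling, which moved the median log2 fold change of all genes from 0.08 to -0.12 (equal totals) or -0.05 (quantile), and changes are given relative to the deposited scale.

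**Figure D1:**
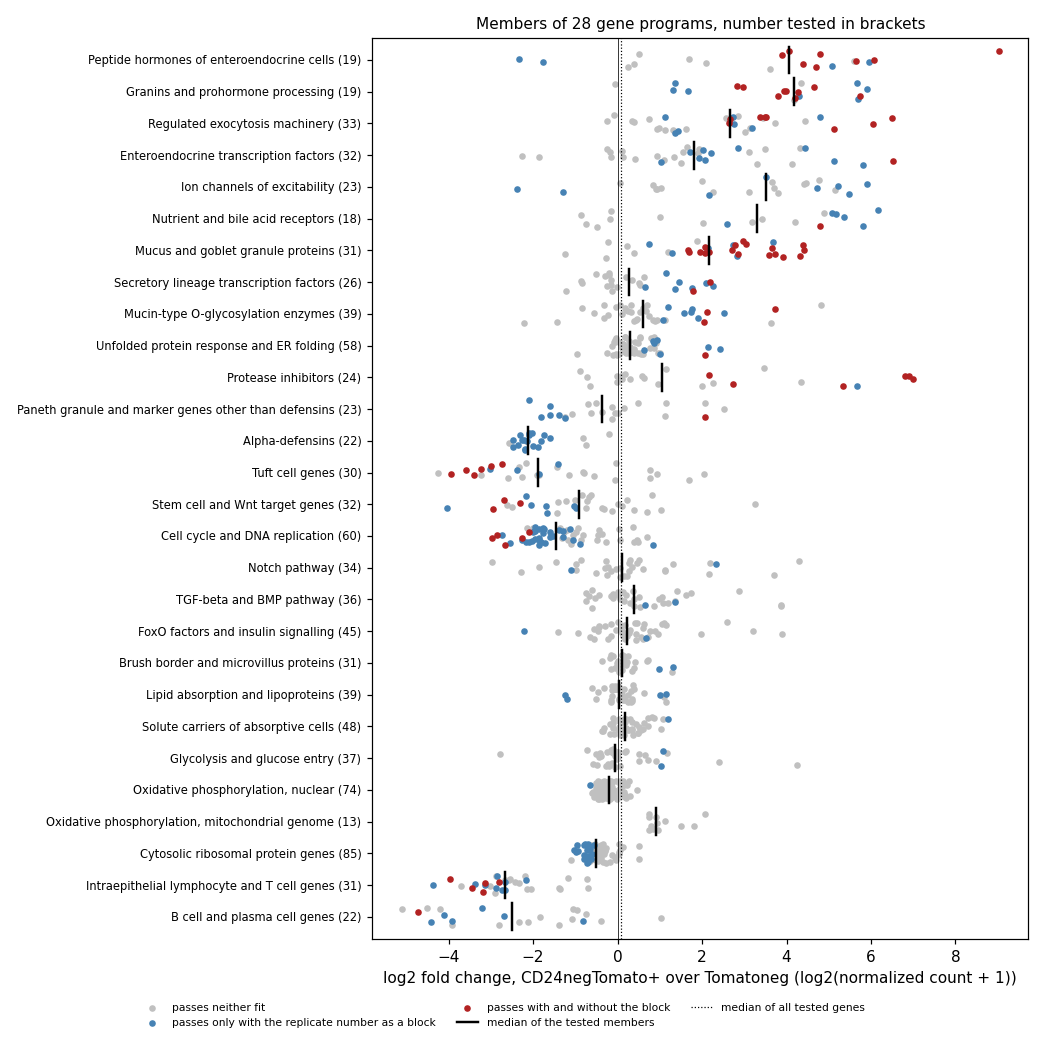
Log2 fold change of each tested member of 28 gene lists (x axis, CD24negTomato+ over Tomatoneg on log2(normalized count + 1)), 1 point per gene and 1 row per list, with the list's median as a black bar and the median of all tested genes as a dotted line. Points are coloured by whether the gene passed both fits, the paired fit alone or neither. The endocrine lists shown and the mucus list lie to the right, with medians of 4.18 for granins and 2.16 for mucus proteins. Secretory factor and unfolded protein response lists have medians of 0.28 and 0.29, closer to the 0.08 of all tested genes. Defensin, tuft, cell cycle and lymphocyte lists lie to the left.

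Hormone genes differed widely between the populations. Of 19 tested peptide hormone genes, 8 rose in the unpaired fit (11 without Tomatoneg replicate 1), and in the paired fit 10 rose and 2 fell, with a median log2 fold change of 4.07 over the 19 against 0.08 over all tested genes. All 28 listed hormone genes, tested or not, took 0.332% to 0.627% of the counts in CD24negTomato+ and 0.0217% to 0.0492% in Tomatoneg libraries. Nts encodes neurotensin, a peptide of distal enteroendocrine cells. It had 23163, 71481 and 25302 in CD24negTomato+ and 676, 1321 and 365 in Tomatoneg libraries, and each CD24negTomato+ library lay far above each Tomatoneg library (log2 fold change 5.66, standard error 0.57, adjusted P = 0.00788). Sct encodes secretin, which stimulates bicarbonate secretion. It had 15934, 18521 and 14204 in CD24negTomato+ and 457, 939.5 and 451 in Tomatoneg libraries and did not overlap (log2 fold change 4.80, adjusted P = 0.00281). Ghrl encodes ghrelin, a hunger hormone. Its values were 4696, 6107 and 3711 in CD24negTomato+ and 149, 342 and 225 in Tomatoneg libraries (log2 fold change 4.39, adjusted P = 0.00571).

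Pyy, whose product peptide YY slows gut transit, had 2784, 4916 and 5396 in CD24negTomato+ and 184, 241 and 94.3 in Tomatoneg libraries (log2 fold change 4.69, adjusted P = 0.00571). Tac1, the precursor of substance P in enterochromaffin cells, had 775, 2870.2 and 2735 in CD24negTomato+ and 68.03, 131 and 206 in Tomatoneg libraries (log2 fold change 3.89, adjusted P = 0.0327). For both, every CD24negTomato+ library lay above every Tomatoneg library. The hormones were not all higher. Gip, the incretin of K cells, had 458, 2109 and 619 in CD24negTomato+ and 2345, 3870.3 and 2534 in Tomatoneg libraries, and Sst, the inhibitory peptide of D cells, had 209, 226 and 53.4 in CD24negTomato+ and 862, 1495 and 259 in Tomatoneg libraries. Both were higher in every Tomatoneg library than in any CD24negTomato+ library, and both fell in the paired fit alone (log2 fold change -1.75, adjusted P = 0.0304 for Gip, and -2.34, adjusted P = 0.0134 for Sst, against 0.164 and 0.187 in the unpaired fit). Iapp, a peptide best known from islets, had 53.3, 108 and 657 in CD24negTomato+ and 51.3, 111 and 18.6 in Tomatoneg libraries and passed in neither fit. Insl5, a hormone of distal L cells, had 21.7, 74.4 and 66.3 in CD24negTomato+ libraries and was listed at 0 in all Tomatoneg libraries, with an adjusted P of 0.0592 that did not pass.

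The promoter windows of Cck and Chga are shown because these endocrine genes passed both fits and their windows hold E-box letters, the class that factors of this lineage such as Neurod1 bind. The windows of Nts and Sct also held matches, and those of Scg2 and Pcsk1 held none. The letters searched were CAGATG and CAGCTG on both strands, and they stand in capitals below in the 250 bases upstream of the start from RefSeq (GRCm38.p6, 5′ to 3′ along the gene). The Cck window is chr9:121495695-121495944 on the minus strand with 1 match at -30, and the Chga window is chr12:102554691-102554940 on the plus strand with 2 matches at -179 and -116.
Cck: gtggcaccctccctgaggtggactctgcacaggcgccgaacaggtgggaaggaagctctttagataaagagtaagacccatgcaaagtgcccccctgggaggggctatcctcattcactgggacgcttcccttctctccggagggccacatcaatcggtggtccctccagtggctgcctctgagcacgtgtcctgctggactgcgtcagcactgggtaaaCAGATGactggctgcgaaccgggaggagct
Chga: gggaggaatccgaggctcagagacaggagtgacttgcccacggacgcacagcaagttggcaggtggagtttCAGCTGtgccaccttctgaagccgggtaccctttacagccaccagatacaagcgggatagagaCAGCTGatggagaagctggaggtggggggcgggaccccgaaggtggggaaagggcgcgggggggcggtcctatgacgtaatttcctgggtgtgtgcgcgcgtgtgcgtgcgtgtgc
Of all 32851 RefSeq windows, which also include the first bases after the start, 17.15% held CAGATG and 16.3% held CAGCTG on either strand. Only 49 of the 71 endocrine genes that were higher in the paired fit had a window, so a share over these genes was void and is not given. Cck had 36574, 46473 and 31803 in CD24negTomato+ and 371, 1070.4 and 446 in Tomatoneg libraries and Chga had 9808, 19769 and 15349 in CD24negTomato+ and 1317, 1199.7 and 688 in Tomatoneg libraries, with log2 fold changes of 6.07 and 3.80.

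Granins and prohormone processing enzymes moved with the hormones. Of 19 tested genes 9 rose in the unpaired fit, 16 in the paired fit and 15 without Tomatoneg replicate 1, none fell, and 17 did not overlap between populations, where 14.7% of all tested genes were without overlap in that direction. Chgb, a granin that helps form dense-core granules, had 17759, 49355 and 18659.9 in CD24negTomato+ and 1028, 1819.7 and 559 in Tomatoneg libraries (log2 fold change 4.64, adjusted P = 0.0111). Scg2, secretogranin II, had 5395, 9884 and 3152 in CD24negTomato+ and 153, 147 and 48.3 in Tomatoneg libraries (log2 fold change 5.73, adjusted P = 0.00717). Cpe, the carboxypeptidase that trims prohormone ends, had 3498, 5975 and 2807 in CD24negTomato+ and 249, 255 and 144 in Tomatoneg libraries (log2 fold change 4.21, adjusted P = 0.00571). All 3 were separated by far more than the spread between replicates. The convertases differed in how firmly they passed. Pcsk1 had 1315, 2758 and 1179 in CD24negTomato+ and 256, 169.9 and 205 in Tomatoneg libraries (log2 fold change 2.96, adjusted P = 0.0164). Pcsk2 had 52.2, 96.9 and 460.5 in CD24negTomato+ and 1.33, 13.02 and 8.58 in Tomatoneg libraries, with CD24negTomato+ replicate 3 well above the other libraries, and passed in the paired fit alone (log2 fold change 4.30, adjusted P = 0.0986, 0.0388 paired). Furin, the convertase of the constitutive pathway, had 2751, 1743 and 2237 in CD24negTomato+ and 2133, 2350.3 and 2458 in Tomatoneg libraries, with overlapping ranges and a log2 fold change of -0.07.

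**Figure D2:**
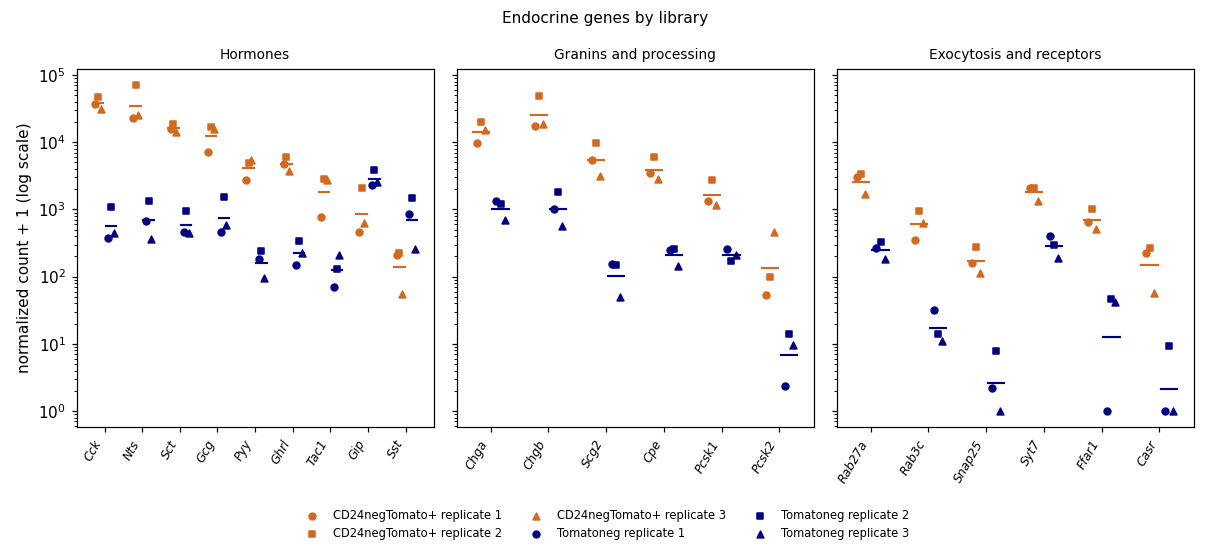
Normalized count + 1 on a log scale (y axis) of hormone, granin, exocytosis and receptor genes (x axis) in each of the 6 libraries, with marker shape for the replicate, colour for the population and a bar at the mean of the log values. Cck, Nts and Chgb have no CD24negTomato+ value below 17759, Gip and Sst are the hormones with higher Tomatoneg values, and points at 1 are genes listed at 0.

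Genes of granule release were higher as well. Of 33 tested members 8 rose in the unpaired fit, 15 in the paired fit and 14 without Tomatoneg replicate 1, and none fell. Rab27a and Rab27b encode small GTPases that tether granules to the cell cortex. Rab27a had 3038, 3348 and 1704 in CD24negTomato+ and 266, 324 and 184 in Tomatoneg libraries (log2 fold change 3.36, adjusted P = 0.00910), and Rab27b had 2395, 3669 and 1235 in CD24negTomato+ and 233, 281 and 116 in Tomatoneg libraries (log2 fold change 3.49, adjusted P = 0.0215). Rab3c, a GTPase of secretory vesicles, had 354, 953 and 629 in CD24negTomato+ and 31.3, 13.1 and 10.1 in Tomatoneg libraries (log2 fold change 5.12, adjusted P = 0.0127). Syt7, a high-affinity calcium sensor of exocytosis, had 2066, 2091 and 1321 in CD24negTomato+ and 399.9, 293 and 189 in Tomatoneg libraries (log2 fold change 2.67, adjusted P = 0.0172). Snap25, a SNARE protein of the plasma membrane, had 157, 276 and 111 in CD24negTomato+ and 1.205, 6.804 and 0 in Tomatoneg libraries and passed with an adjusted P of 0.0361. The Tomatoneg values of Snap25 lay at or near the limit of detection, so the size of its difference is poorly fixed. The trafficking ATPase Nsf had 1608, 1529 and 1396 in CD24negTomato+ and 2025, 1247 and 1602 in Tomatoneg libraries, with overlapping ranges, and the SNARE protein Vamp3 had 2749, 2609 and 3071 in CD24negTomato+ and 1593, 2594 and 2425 in Tomatoneg libraries (adjusted P = 0.471, 0.239 paired).

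Transcription factors of the endocrine lineage passed mostly in the paired fit, where 11 of 32 tested genes were higher and none lower, against 1 in the unpaired fit and 9 without Tomatoneg replicate 1. The gene that passed both was Onecut3, a homeobox factor, with 594, 583 and 315 in CD24negTomato+ and 0, 14.1 and 8.597 in Tomatoneg libraries (adjusted P = 0.0349). Insm1, a zinc-finger factor of endocrine differentiation, had 379, 550.2 and 427 in CD24negTomato+ and 66.9, 158 and 81.4 in Tomatoneg libraries (log2 fold change 2.22, adjusted P = 0.0577, 0.0224 paired). Fev, the serotonergic factor of enterochromaffin cells, had 209, 369 and 243 in CD24negTomato+ and 57.7, 78.1 and 61.2 in Tomatoneg libraries (log2 fold change 2.01, adjusted P = 0.0675, 0.0359 paired). Neither overlapped between populations. Foxa2 had 435, 342 and 297 in CD24negTomato+ and 115, 110.4 and 60.6 in Tomatoneg libraries (log2 fold change 1.94, adjusted P = 0.0318 paired), and its relative Foxa1 had 583, 806 and 541 in CD24negTomato+ and 301, 387 and 256 in Tomatoneg libraries (log2 fold change 1.03, adjusted P = 0.0494 paired). Pdx1, a factor shared with other epithelial cells of the proximal gut, had 534, 440.4 and 386 in CD24negTomato+ and 481, 305 and 257 in Tomatoneg libraries.

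Of the monoamine genes 4 of 15 were higher in the paired fit and 1 in the unpaired fit. Tph1, the rate-limiting enzyme of serotonin synthesis in enterochromaffin cells, had 1671, 2969.7 and 1106 in CD24negTomato+ and 468, 342 and 65.97 in Tomatoneg libraries (adjusted P = 0.0960, 0.0200 paired). Slc18a1, the vesicular monoamine transporter of these cells, had 1078, 1509 and 820.2 in CD24negTomato+ and 379, 365 and 141 in Tomatoneg libraries (log2 fold change 2.03, adjusted P = 0.0175 paired). Trpa1, an irritant-sensing channel of enterochromaffin cells, had 208, 434 and 158 in CD24negTomato+ and 0, 7.61 and 4.297 in Tomatoneg libraries and passed both fits (adjusted P = 0.0349). Slc6a4, the serotonin reuptake transporter of enterocytes, had 3010.0, 1518 and 2097 in CD24negTomato+ and 2247, 2164 and 2608 in Tomatoneg libraries, with overlapping ranges.

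Most tested ion channels of excitability were higher in CD24negTomato+ cells, with 21 of 23 log2 fold changes above 0. Their median was 3.51 against 0.08 over all tested genes. For 16 the CD24negTomato+ values were higher without overlap, against 14.7% of all tested genes. For 2 they were lower without overlap, against 10.6%. All 33 listed channel genes together took a like share of counts in both populations. The share was 0.0420% to 0.0509% in CD24negTomato+ and 0.0390% to 0.0513% in Tomatoneg libraries. Of 23 tested ion channel genes 6 were higher and 2 lower in the paired fit and none passed the unpaired fit, while 9 were higher and 2 lower without Tomatoneg replicate 1. At an unadjusted P below 0.05 the unpaired limma fit had 15 channel genes higher and 2 lower. Scn3a, a voltage-gated sodium channel, had 241, 696 and 127 in CD24negTomato+ and 0, 10.2 and 8.09 in Tomatoneg libraries (adjusted P = 0.0531, 0.0257 paired). The channels that fell were Trpm5 (115, 65.4 and 56.8 in CD24negTomato+ and 279, 526 and 434 in Tomatoneg libraries, log2 fold change -2.39, adjusted P = 0.0389 paired), a taste-transduction channel of tuft cells, and Kcnq1 (713, 821 and 1175 in CD24negTomato+ and 1199, 2474 and 3354 in Tomatoneg libraries, log2 fold change -1.28, adjusted P = 0.0302 paired). Of 18 genes in the receptor list, which also holds the hormone Sct, 7 were higher in the paired fit and 9 without Tomatoneg replicate 1, and Sct alone passed the unpaired fit. Ffar2, a receptor for short-chain fatty acids, had 639.8, 642 and 462 in CD24negTomato+ and 49.98, 175 and 95.8 in Tomatoneg libraries (log2 fold change 2.59, adjusted P = 0.0538, 0.0277 paired). Ffar1, a receptor for long-chain fatty acids, had 653, 1019 and 510.0 in CD24negTomato+ and 0, 45.7 and 40.8 in Tomatoneg libraries (adjusted P = 0.0926, 0.0395 paired). Casr, the calcium-sensing receptor, had 222, 264 and 56.2 in CD24negTomato+ and 0, 8.302 and 0 in Tomatoneg libraries (adjusted P = 0.0547, 0.0257 paired). For Ffar1 and Casr the zeros of Tomatoneg libraries weigh on the fold change, and each CD24negTomato+ value was above each Tomatoneg value. Of 20 tested neuronal adhesion genes 4 were higher in the paired fit, none passed the unpaired limma fit (9 higher and 1 lower at an unadjusted P below 0.05), and 8 were higher without Tomatoneg replicate 1. Map1b, a microtubule-associated protein, had 242, 461 and 163 in CD24negTomato+ and 1.04, 44.2 and 6.004 in Tomatoneg libraries (adjusted P = 0.0290 paired).

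Mucus and goblet granule genes were higher and took a large share of the transcriptome. The 32 listed genes, of which 31 were tested, took 7.55% to 11.1% of all counts in CD24negTomato+ and 0.942% to 1.28% in Tomatoneg libraries. In the unpaired fit 18 rose and none fell, in the paired fit 24 rose, and without Tomatoneg replicate 1 22 rose and 1 fell. For 26 of the 31 the populations did not overlap, all with the higher values in CD24negTomato+ cells. Over all tested genes 14.7% were without overlap in that direction, and 0.999% rose in the unpaired and 4.34% in the paired fit. Fcgbp encodes a mucus protein that crosslinks the mucin network. It had 983087, 1234310.0 and 1147090.0 in CD24negTomato+ and 54028, 104066 and 105769 in Tomatoneg libraries (log2 fold change 3.73, standard error 0.49, adjusted P = 0.0164), and the lowest CD24negTomato+ library was far above the highest Tomatoneg library. Zg16, a lectin that binds bacterial walls, had 849360.0, 837929 and 472290.0 in CD24negTomato+ and 42398, 32537 and 24563 in Tomatoneg libraries (log2 fold change 4.43, adjusted P = 0.00685). Clca1, a metalloprotease that processes mucus, had 285955, 319731 and 159733 in CD24negTomato+ and 14311, 13076 and 8558 in Tomatoneg libraries (log2 fold change 4.38, adjusted P = 0.00571). Tff3, the trefoil peptide of mucosal repair, had 213120.0, 219212 and 196861 in CD24negTomato+ and 8361, 17677 and 17746 in Tomatoneg libraries (log2 fold change 3.93, adjusted P = 0.00602).

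Fer1l6, a ferlin, had 3928, 3465 and 1827 in CD24negTomato+ and 133, 188 and 124 in Tomatoneg libraries (log2 fold change 4.31, adjusted P = 0.00571), and Sytl2, a Rab27 effector, had 4197, 4984 and 1649 in CD24negTomato+ and 309, 391 and 141 in Tomatoneg libraries (log2 fold change 3.65, adjusted P = 0.0232). Agr2, a disulfide isomerase that mucin folding needs, had 61866, 131255 and 69261 in CD24negTomato+ and 6107, 21034 and 13213 in Tomatoneg libraries and just passed the unpaired fit (log2 fold change 2.79, adjusted P = 0.0494, 0.00315 paired). Membrane mucins differed among themselves. Muc3a, which is in no list and was chosen after its values were seen, had 2325, 2545 and 2242 in CD24negTomato+ and 535, 609.6 and 618 in Tomatoneg libraries and passed both fits (log2 fold change 2.01, adjusted P = 0.00910, 0.00415 paired). Muc13 had 90748, 96208 and 75033 in CD24negTomato+ and 65672, 53889 and 38798 in Tomatoneg libraries and passed the paired fit alone (log2 fold change 0.75, adjusted P = 0.298, 0.0466 paired). Muc3 had 26641, 12108 and 13042 in CD24negTomato+ and 27052, 11387 and 8590.0 in Tomatoneg libraries, with overlapping ranges. Ang4, a bactericidal ribonuclease of both goblet and Paneth cells, had 945, 850.4 and 993 in CD24negTomato+ and 864, 3017 and 4034 in Tomatoneg libraries, with a log2 fold change of -1.24 that passed in neither fit.

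The Muc2 and Fcgbp windows are shown as the gel-forming mucin and the mucus protein with the highest counts, again with CAGATG and CAGCTG in capitals, the letters class that Atoh1 binds. The windows of the goblet factors Atoh1 and Spdef held none. The Muc2 window is chr7:141690090-141690339 on the plus strand with a match at -112, and the Fcgbp window is chr7:28070986-28071235 on the plus strand with a match at -208, both from RefSeq, GRCm38.p6.
Muc2: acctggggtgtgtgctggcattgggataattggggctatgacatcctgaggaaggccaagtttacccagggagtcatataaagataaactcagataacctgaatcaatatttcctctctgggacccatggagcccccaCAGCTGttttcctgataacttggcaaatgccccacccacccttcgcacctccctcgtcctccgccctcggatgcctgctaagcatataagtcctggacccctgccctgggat
Fcgbp: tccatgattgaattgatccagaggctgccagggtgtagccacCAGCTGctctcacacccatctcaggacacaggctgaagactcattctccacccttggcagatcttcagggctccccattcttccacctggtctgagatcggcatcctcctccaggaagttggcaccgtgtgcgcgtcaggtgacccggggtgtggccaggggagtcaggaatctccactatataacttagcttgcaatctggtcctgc
Both matches are CAGCTG, which reads the same on either strand. Only 32 of 49 goblet genes higher in the paired fit had a window, so no share over these genes is given. Muc2 had 8102, 9976 and 6399 in CD24negTomato+ and 1069, 1496 and 1160.3 in Tomatoneg libraries (log2 fold change 2.71, adjusted P = 0.00602).

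**Figure D3:**
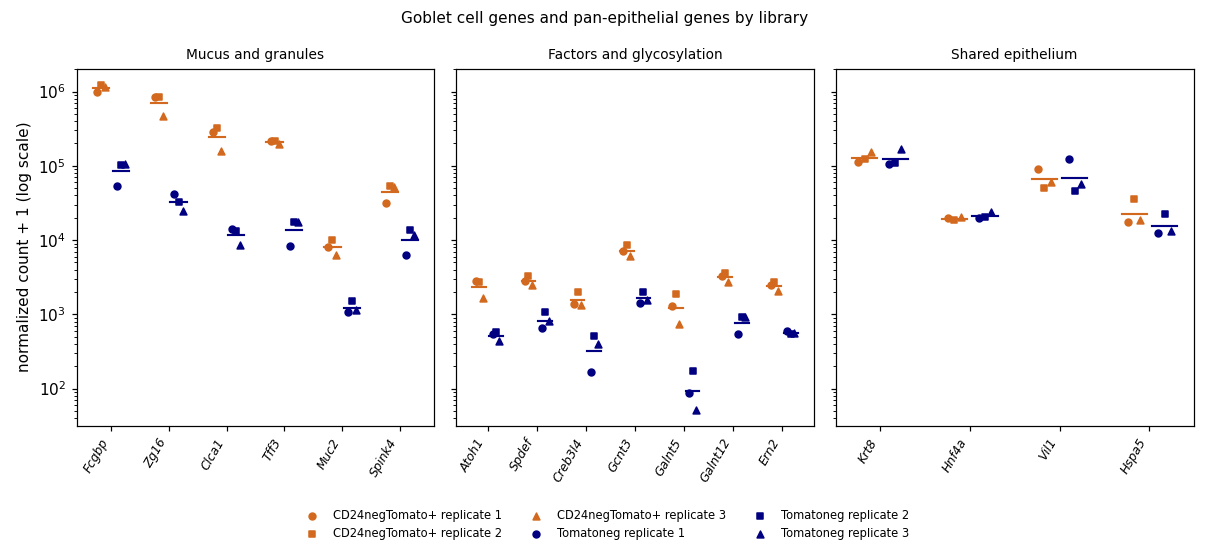
Normalized count + 1 on a log scale (y axis) of mucus genes, of goblet cell factors and glycosylation enzymes, and of genes shared by the epithelium (x axis) in each of the 6 libraries, drawn as in the endocrine plot. Fcgbp reached 1234310 in CD24negTomato+ replicate 2 and at most 105769 in Tomatoneg libraries, whereas Krt8, Hnf4a, Vil1 and Hspa5 had overlapping values.

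Factors that direct secretory fate were split. Of 26 tested genes 2 rose in the unpaired fit, and 9 were higher and none lower both in the paired fit and without Tomatoneg replicate 1. Atoh1, the factor that sets secretory against absorptive fate, had 2789, 2714 and 1668 in CD24negTomato+ and 540.0, 569 and 437 in Tomatoneg libraries (log2 fold change 2.18, adjusted P = 0.0164). Spdef, which drives goblet maturation, had 2857, 3239 and 2484 in CD24negTomato+ and 647, 1069.8 and 808 in Tomatoneg libraries (log2 fold change 1.79, adjusted P = 0.0233). Creb3l4, a membrane-bound factor of secretory cells, had 1379, 2000.5 and 1322 in CD24negTomato+ and 168, 503 and 392 in Tomatoneg libraries (log2 fold change 2.26, adjusted P = 0.0547, 0.0172 paired). These 3 did not overlap between populations. Gut identity factors had smaller differences, with overlapping ranges in Hnf4a and Gata4 and slightly lower values in each CD24negTomato+ library in Cdx2. Hnf4a had 19768, 18424 and 20237 in CD24negTomato+ and 19714, 20292 and 23976 in Tomatoneg libraries, Cdx2 had 3938, 3486 and 3851 in CD24negTomato+ and 3997, 4291 and 4768 in Tomatoneg libraries and Gata4 had 3972, 3983 and 4629 in CD24negTomato+ and 3685, 4616 and 6098 in Tomatoneg libraries, with log2 fold changes of -0.13, -0.21 and -0.17 that passed in neither fit.

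Enzymes that build mucin O-glycans followed in part, with 3 of 39 higher in the unpaired fit, 10 in the paired fit, and 7 higher and 1 lower without Tomatoneg replicate 1. Galnt5 and Galnt12 attach the first N-acetylgalactosamine. Galnt5 had 1312, 1864 and 740.1 in CD24negTomato+ and 86.8, 172 and 51.3 in Tomatoneg libraries (log2 fold change 3.72, adjusted P = 0.0232), and Galnt12 had 3257, 3624 and 2723 in CD24negTomato+ and 537, 929 and 925 in Tomatoneg libraries (log2 fold change 2.04, adjusted P = 0.0212). Gcnt3, which branches the core, had 7156, 8606 and 6056 in CD24negTomato+ and 1423, 2004 and 1577 in Tomatoneg libraries (log2 fold change 2.12, adjusted P = 0.0109). C1galt1, the core 1 synthase, had 3863, 4914 and 3724 in CD24negTomato+ and 1240.4, 1265 and 236 in Tomatoneg libraries, with Tomatoneg replicate 3 far below the other Tomatoneg libraries (log2 fold change 2.52, adjusted P = 0.0960, 0.0332 paired). The sialyltransferase St3gal4, the most abundant member, had 39881, 34869 and 54888 in CD24negTomato+ and 28506, 37264 and 58092 in Tomatoneg libraries and did not separate.

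The unfolded protein response list shifted by a small amount, with a median log2 fold change of 0.29 (0.09 with equal library totals). Of 58 genes 1 was higher in the unpaired fit and 8 in the paired fit, and none was lower. Over all tested genes 0.999% and 4.34% were higher. At an unadjusted P below 0.05 the unpaired limma fit had 12 higher and 0 lower, against 1377 and 915 of all 13420 genes. In 47 of the 58 the log2 fold change was above 0. The gene that passed both fits was Ern2, the goblet cell form of the stress sensor IRE1, which is also on the goblet list and had 2494, 2696 and 2043 in CD24negTomato+ and 601, 542 and 557 in Tomatoneg libraries (log2 fold change 2.08, adjusted P = 0.00938). Dnajc10, a reductase of misfolded proteins, had 3633, 7332 and 3147 in CD24negTomato+ and 643, 1918 and 804 in Tomatoneg libraries (log2 fold change 2.13, adjusted P = 0.0800, 0.00415 paired). The main chaperone Hspa5 had 17492, 36003 and 18658 in CD24negTomato+ and 12604, 22336 and 13257 in Tomatoneg libraries, with each CD24negTomato+ library above its same-numbered Tomatoneg library and overlapping ranges (log2 fold change 0.55, adjusted P = 0.480, 0.0555 paired).

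Antimicrobial genes of Paneth cells ran the other way. The paper reports Paneth cells among CD24+ cells, which the CD24neg gate removed from the Tomato+ group only. Lineage and gate differ together here, and their parts in the Paneth genes were not tested. Of 22 tested alpha-defensins none passed the unpaired fit, 17 were lower in the paired fit and 9 without Tomatoneg replicate 1, and all 22 had a log2 fold change below 0 (median -2.12). At an unadjusted P below 0.05 the unpaired limma fit had 13 of them lower. Reads of near-identical defensins are divided in the estimation, so single values are uncertain. Defa2 had 911, 3161 and 5478 in CD24negTomato+ and 6422, 21194 and 19889.6 in Tomatoneg libraries (log2 fold change -2.47, adjusted P = 0.136, 0.00520 paired). Defa20 had 1367, 3913 and 3956 in CD24negTomato+ and 5133, 23621 and 21169 in Tomatoneg libraries (log2 fold change -2.31, adjusted P = 0.134, 0.00314 paired). In both genes the libraries numbered 1 were the lowest of their population, so the ranges were wide without pairing while each pair differed in the same direction. Defa24, the most abundant defensin, had 7908, 17556 and 17646 in CD24negTomato+ and 6415, 43024 and 41002 in Tomatoneg libraries, with pair 1 in the opposite direction, and passed in neither fit. The 23 listed defensins, of which 22 were tested, took 0.078% to 0.2498% of counts in CD24negTomato+ and 0.253% to 1.17% in Tomatoneg libraries.

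Of 23 other Paneth genes 6 were lower and 1 higher in the paired fit, and 7 were lower and 1 higher without Tomatoneg replicate 1. Itln1, a lectin, had 3679, 7581 and 7776 in CD24negTomato+ and 8714, 22702 and 30685 in Tomatoneg libraries (log2 fold change -1.60, adjusted P = 0.169, 0.00920 paired). Pla2g2a, a bactericidal phospholipase, had 85.5, 340.4 and 339 in CD24negTomato+ and 387, 1163 and 958 in Tomatoneg libraries (log2 fold change -1.81, adjusted P = 0.0201 paired). Ephb2, a receptor that positions cells in the crypt, had 544, 737 and 866 in CD24negTomato+ and 2136, 1469.5 and 2019 in Tomatoneg libraries (log2 fold change -1.40, adjusted P = 0.0593, 0.0291 paired). The one that rose, in both fits, was Nupr1, a stress-induced nuclear protein that is on the goblet list as well, with 976, 1629 and 1489 in CD24negTomato+ and 292, 339 and 319 in Tomatoneg libraries (log2 fold change 2.07, adjusted P = 0.0195). Mmp7, the protease that activates defensins, had 1059, 3708 and 4525 in CD24negTomato+ and 1413, 5005 and 5413 in Tomatoneg libraries and passed in neither fit. Among the 7 Reg lectins Reg4, which marks endocrine and goblet cells, had 5707, 5979 and 2857 in CD24negTomato+ and 344, 725 and 470.2 in Tomatoneg libraries (log2 fold change 3.23, adjusted P = 0.0131). The antimicrobial lectin Reg3b had 369936, 579441 and 1042200.0 in CD24negTomato+ and 374703, 688944 and 1049470.0 in Tomatoneg libraries, and Reg3g had 129732, 295908 and 411754 in CD24negTomato+ and 96002, 333701 and 437474 in Tomatoneg libraries. Both varied more between replicate numbers than between populations.

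**Figure D4:**
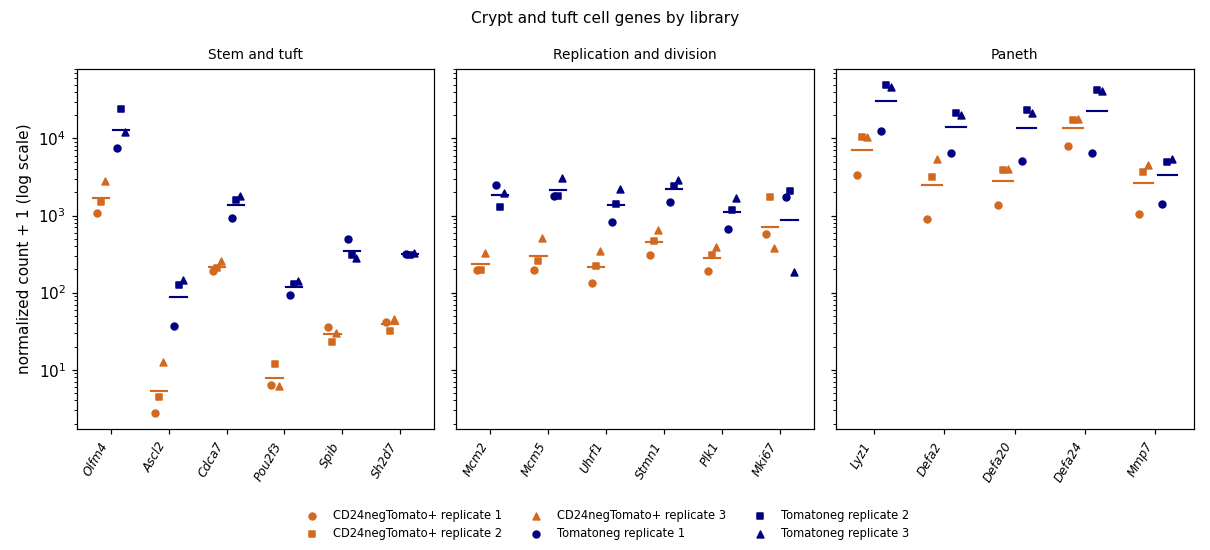
Normalized count + 1 on a log scale (y axis) of stem and tuft cell genes, replication and division genes, and Paneth genes (x axis) in each of the 6 libraries, drawn as in the endocrine plot. Pou2f3, Spib, Mcm2 and Cdca7 show no overlap between populations, while Mki67, Mmp7 and Defa24 overlap.

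Tuft cell genes were lower in CD24negTomato+ cells, with 6 of 30 in the unpaired fit, 10 in the paired fit and 14 without Tomatoneg replicate 1, and none higher in these 3 fits. Pou2f3, the factor that specifies tuft cells, had 5.39, 10.7 and 5.23 in CD24negTomato+ and 91.8, 128 and 141 in Tomatoneg libraries (log2 fold change -3.94, adjusted P = 0.0397). Spib, an Ets factor of tuft cells, M cells and lymphocytes, had 34.7, 21.98 and 28.7 in CD24negTomato+ and 489, 309.6 and 277 in Tomatoneg libraries (log2 fold change -3.59, adjusted P = 0.0164). Sh2d7 had 40.7, 31.2 and 44.6 in CD24negTomato+ and 314, 302 and 329 in Tomatoneg libraries and Sh2d6 had 25.3, 12.4 and 21.2 in CD24negTomato+ and 139, 274 and 171 in Tomatoneg libraries, with adjusted P values of 0.0182 and 0.0445. In these 4 genes the highest CD24negTomato+ library was below the lowest Tomatoneg library. Alox5ap, which leukotriene synthesis needs in tuft and myeloid cells, had 17.2, 7.54 and 20.7 in CD24negTomato+ and 179, 145 and 147 in Tomatoneg libraries (log2 fold change -3.39, adjusted P = 0.0477). Dclk1, the kinase most used as a tuft marker, had 62.4, 71.9 and 78.6 in CD24negTomato+ and 253, 357 and 194 in Tomatoneg libraries and passed the paired fit alone (log2 fold change -1.86, adjusted P = 0.0492). Lymphocyte genes moved in the same direction, and their part in genes such as Spib and Alox5ap was not tested.

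Stem cell and Wnt target genes were mostly lower, with 3 of 32 in the unpaired fit, 10 in the paired fit and 7 without Tomatoneg replicate 1. The log2 fold change was below 0 in 24 of the 32 and above 0 in 8, up to 3.26. Without overlap between populations 14 were lower and 2 higher, against 10.6% and 14.7% of all tested genes. Without Tomatoneg replicate 1 there was also 1 higher member. Olfm4, a secreted marker of crypt-base stem cells, had 1085, 1519.5 and 2811 in CD24negTomato+ and 7410.3, 24025 and 11999 in Tomatoneg libraries (log2 fold change -2.95, adjusted P = 0.0400). Cdca7, a Myc-regulated chromatin factor, had 192, 205 and 253 in CD24negTomato+ and 941, 1585 and 1797 in Tomatoneg libraries (log2 fold change -2.69, adjusted P = 0.0133). Msi1, an RNA-binding protein of progenitors, had 54.4, 43.9 and 43.8 in CD24negTomato+ and 207, 241 and 270.3 in Tomatoneg libraries (log2 fold change -2.31, adjusted P = 0.0473). Ascl2, a Wnt-induced stem cell factor, had 1.74, 3.42 and 11.8 in CD24negTomato+ and 35.99, 124 and 146 in Tomatoneg libraries and passed the paired fit alone (adjusted P = 0.0875, 0.0417 paired). Smoc2 had 198, 306 and 550.1 in CD24negTomato+ and 855, 1810.1 and 1983 in Tomatoneg libraries (log2 fold change -2.17, adjusted P = 0.0728, 0.00856 paired). General Wnt feedback genes were closer, as Axin2 had 1019, 804 and 870.0 in CD24negTomato+ and 1414, 1289.9 and 1436 in Tomatoneg libraries (log2 fold change -0.63, adjusted P = 0.205, 0.0781 paired) and Rnf43 had 995, 489 and 704 in CD24negTomato+ and 1059, 574 and 726 in Tomatoneg libraries.

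Many cell cycle and DNA replication genes fell in the paired fit. In the unpaired fit 5 of 60 fell, in the paired fit 34 fell and 1 rose, and without Tomatoneg replicate 1 28 fell, with a median log2 fold change of -1.45 that was nearly equal in the 3 same-numbered pairs (-1.57, -1.56 and -1.57). Mcm2, Mcm5 and Mcm7 encode subunits of the replicative helicase. Mcm2 had 196, 198 and 326 in CD24negTomato+ and 2457, 1301 and 1950.3 in Tomatoneg libraries (log2 fold change -2.98, standard error 0.34, adjusted P = 0.0118), Mcm5 had 198, 254 and 510.5 in CD24negTomato+ and 1782, 1805 and 3100.2 in Tomatoneg libraries (log2 fold change -2.86, adjusted P = 0.0232), and Mcm7 had 299.6, 387 and 545 in CD24negTomato+ and 1151, 1698 and 2533 in Tomatoneg libraries (log2 fold change -2.09, adjusted P = 0.0460). Uhrf1, which keeps DNA methylation through replication, had 131, 222 and 341 in CD24negTomato+ and 815, 1413 and 2214 in Tomatoneg libraries (log2 fold change -2.66, adjusted P = 0.0494). Stmn1, a microtubule regulator of dividing cells, had 306, 470.3 and 656 in CD24negTomato+ and 1508, 2396 and 2906 in Tomatoneg libraries (log2 fold change -2.26, adjusted P = 0.0372).

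Genes of mitosis gave mixed results. Plk1, a mitotic kinase, had 190.1, 305 and 394 in CD24negTomato+ and 663, 1197 and 1687 in Tomatoneg libraries (log2 fold change -1.95, adjusted P = 0.0765, 0.00913 paired), and Cdk1, the kinase that drives entry into mitosis, had 145, 418 and 327 in CD24negTomato+ and 450.3, 1271 and 1392 in Tomatoneg libraries (log2 fold change -1.77, adjusted P = 0.166, 0.0168 paired). Mki67, the common proliferation marker, did not separate, with 576, 1715 and 376 in CD24negTomato+ and 1749, 2104 and 182 in Tomatoneg libraries, and its lowest value was in Tomatoneg replicate 3. The gene that rose was Cdkn1a, the cell cycle inhibitor p21, with 7616, 6586 and 6704 in CD24negTomato+ and 4353, 3241 and 4134 in Tomatoneg libraries (log2 fold change 0.84, adjusted P = 0.105, 0.0257 paired).

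The windows of Mcm5 and Uhrf1 are shown because replication genes are classical targets of E2F factors and many members fell. These windows were chosen because they hold a match, and the windows of Mcm2 and Mcm7 and the first Uhrf1 window held none. The letters TTTCGCGC and TTTGGCGC were searched on both strands after the values had been seen, and neighbouring matches may overlap, as in Mcm5, where 1 match on each strand shares its central letters. The Mcm5 window is chr8:75109259-75109508 on the plus strand, with matches at -153 and -149, and the Uhrf1 window, the second of 2 listed starts, is chr17:56304063-56304312 on the plus strand, with a match at -185, from RefSeq, GRCm38.p6.
Mcm5: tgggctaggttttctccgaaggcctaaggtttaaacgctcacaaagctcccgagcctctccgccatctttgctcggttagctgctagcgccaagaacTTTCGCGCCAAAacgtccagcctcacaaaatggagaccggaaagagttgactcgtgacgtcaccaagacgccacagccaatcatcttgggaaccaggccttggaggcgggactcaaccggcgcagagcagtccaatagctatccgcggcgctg
Uhrf1: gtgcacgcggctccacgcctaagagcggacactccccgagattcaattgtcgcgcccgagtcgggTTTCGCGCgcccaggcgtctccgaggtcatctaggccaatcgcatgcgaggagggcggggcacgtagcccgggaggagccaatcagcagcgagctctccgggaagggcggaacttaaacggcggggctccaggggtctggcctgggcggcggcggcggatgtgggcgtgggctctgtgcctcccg
Of 34 cell cycle genes that fell in the paired fit 29 had a window, and 7 of their 31 windows (22.58%) held the letters, against 0.8128% of all 32851 windows and 1.448% of 13119 windows of tested genes. A match describes letters in a window and not a bound site. Cell cycle genes that did not fall were not compared, so whether the letters go with the fall was not tested.

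Absorptive genes were, by contrast, close between populations. No brush border, lipid absorption or solute carrier gene passed the unpaired limma fit (2, 2 and 1 higher genes and 0, 1 and 0 lower genes at an unadjusted P below 0.05), and 2 of 31, 2 of 39 and 1 of 48 were higher in the paired fit, with 2 lipid genes lower. Median log2 fold changes were 0.10, 0.04 and 0.17 and turned to -0.10, -0.16 and -0.03 with equal library totals, so no direction is given for these lists. Vil1, the actin bundler of microvilli, had 92077, 50623 and 60359 in CD24negTomato+ and 122064, 45142 and 57425 in Tomatoneg libraries. Apoa1, the main apolipoprotein of high-density lipoprotein, had 151571, 57642 and 67570.1 in CD24negTomato+ and 198413, 53034 and 60317 in Tomatoneg libraries, and Slc5a1, the sodium-glucose transporter, had 77083, 29968 and 36728 in CD24negTomato+ and 73183, 30998 and 27928 in Tomatoneg libraries. In all 3 genes both libraries numbered 1 held the highest values, so replicate number separated the libraries more than population did. Fabp2, the intestinal fatty acid binding protein, was higher in each CD24negTomato+ library than in its same-numbered partner, with 66717, 46387 and 36186 in CD24negTomato+ and 36762, 23481 and 15921 in Tomatoneg libraries (log2 fold change 1.01, adjusted P = 0.248, 0.0183 paired). Krt20, a keratin of differentiated villus cells, had 39149, 38189 and 32857 in CD24negTomato+ and 24393, 16318 and 15896 in Tomatoneg libraries (log2 fold change 0.99, adjusted P = 0.127, 0.0249 paired).

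Of 22 digestive hydrolases 1 rose in the unpaired fit and 2 in the paired fit. That gene was Cltrn, an amino acid transport partner without peptidase activity, with 187, 230.3 and 182 in CD24negTomato+ libraries and values below the limit of detection in all Tomatoneg libraries (0, 1.08 and 0). Sis, sucrase-isomaltase, had 83629, 44318 and 42009 in CD24negTomato+ and 56791, 21327 and 5737 in Tomatoneg libraries and passed in neither fit (adjusted P = 0.363, 0.0884 paired). Of 53 xenobiotic and retinoid genes none passed the unpaired limma fit (4 were higher at an unadjusted P below 0.05). In the paired fit 4 were higher and 1 lower, against 4.34% and 2.96% of all tested genes. Gsta4, a glutathione transferase for lipid aldehydes, had 6075, 4607 and 2064 in CD24negTomato+ and 1532, 682 and 339.9 in Tomatoneg libraries (log2 fold change 2.45, adjusted P = 0.0957, 0.00415 paired).

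**Figure D5:**
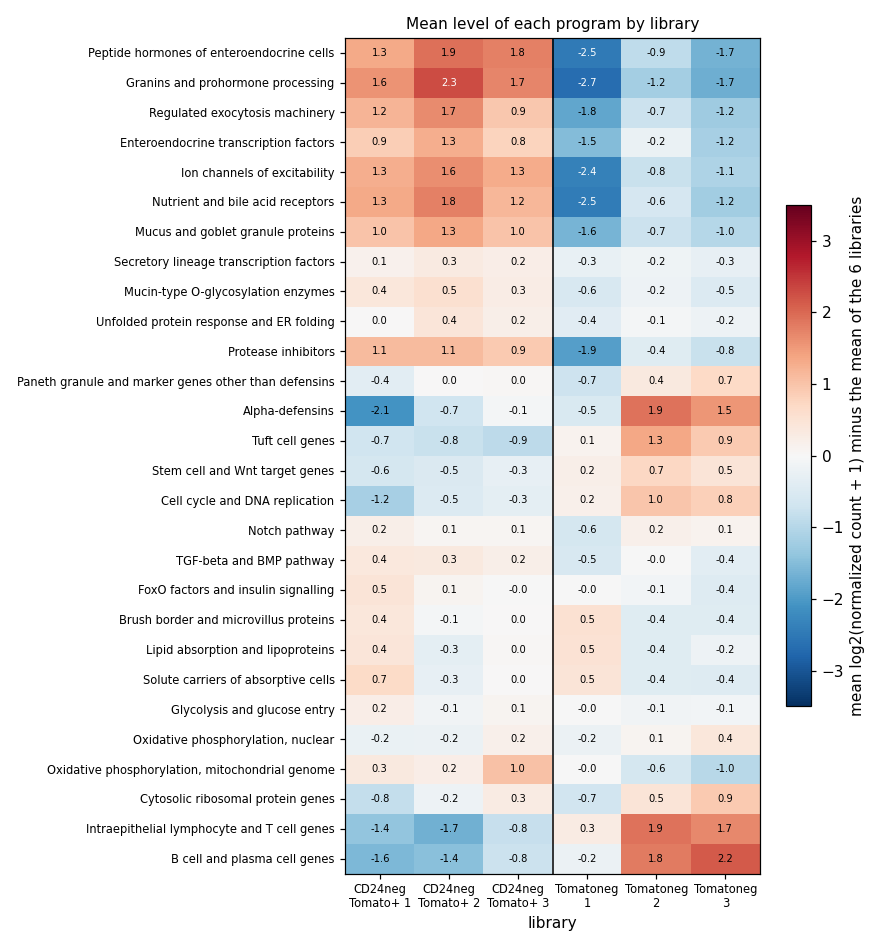
Mean log2(normalized count + 1) of the tested members of 28 gene lists (rows) in each of the 6 libraries (columns), after subtracting the mean of the 6 libraries, with the value printed in each cell. Endocrine and goblet lists are above 0 in all CD24negTomato+ libraries and below 0 in all Tomatoneg libraries, while brush border, lipid and solute carrier lists have their highest values in the libraries numbered 1 of both populations.

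For genes of energy metabolism, the counts stand beside 4.34% higher and 2.96% lower genes over all tested genes in the paired fit. The unpaired shares were 0.999% and 0.32%. No gene of glycolysis passed the unpaired limma fit (3 higher and 2 lower genes at an unadjusted P below 0.05), and Hk2 and Slc2a1 of 37 were higher in the paired fit. Hk2, a hexokinase, had 2295, 3148 and 2389 in CD24negTomato+ and 884, 2123 and 1097 in Tomatoneg libraries (log2 fold change 1.02, adjusted P = 0.0397 paired), and Slc2a1, the glucose transporter GLUT1, had 1096, 1214 and 1304 in CD24negTomato+ and 409.8, 604 and 737 in Tomatoneg libraries (log2 fold change 1.08, adjusted P = 0.0374 paired). Of 74 nuclear genes of oxidative phosphorylation 1 was lower in the paired fit, with a median log2 fold change of -0.20. The 13 genes of the mitochondrial genome all had positive log2 fold changes (median 0.91) and took 10.5% to 15.8% of counts in CD24negTomato+ and 6.95% to 8.51% in Tomatoneg libraries, and 8 of the 13 were higher without overlap between populations, against 14.7% of all tested genes, yet none passed either limma fit (5 at an unadjusted P below 0.05 without pairing) and 1 passed without Tomatoneg replicate 1. In mt-Co3, for example, the values were 420208, 382851 and 797908 in CD24negTomato+ and 190084, 261015 and 250755 in Tomatoneg libraries (log2 fold change 1.12, adjusted P = 0.316, 0.0566 paired).

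Cytosolic ribosomal protein genes were lower in the paired fit, where 21 of 85 fell and none rose, while none passed the unpaired limma fit (1 lower at an unadjusted P below 0.05) or the fit without Tomatoneg replicate 1. Their median log2 fold change was -0.51, and 7 of the 85 were above 0. Rplp0, of the ribosomal stalk, had 17754, 22506 and 44663 in CD24negTomato+ and 33806, 45664 and 81362 in Tomatoneg libraries (log2 fold change -0.94, adjusted P = 0.345, 0.0183 paired). In this list too the level depended on the replicate number, since the share of counts was 1.61%, 2.55% and 3.295% in CD24negTomato+ and 2.26%, 4.80% and 6.17% in Tomatoneg replicates 1, 2 and 3. Over all tested genes 4.34% were higher and 2.96% lower in the paired fit. Of 16 heat shock genes 2 were lower in that fit. Among them was Hsp90ab1 with 16442, 22222 and 20034 in CD24negTomato+ and 32884, 33368 and 33848 in Tomatoneg libraries (log2 fold change -0.78, adjusted P = 0.159, 0.0335 paired). Of 28 immediate early genes, which respond within minutes to growth factors and stress, 27 had a positive log2 fold change (median 0.47) and 1 passed the paired fit, the phosphatase Dusp1 with 1226, 1997 and 1523 in CD24negTomato+ and 307, 714 and 714 in Tomatoneg libraries (log2 fold change 1.52, adjusted P = 0.106, 0.0228 paired). Fos had 8311, 12084 and 11340.3 in CD24negTomato+ and 6655, 8407 and 8265 in Tomatoneg libraries and did not pass.

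Signalling lists had calls near the share over all tested genes, which was 7.3% in the paired fit and 1.32% in the unpaired fit. None of 34 Notch, 36 TGF-beta and BMP or 45 FoxO and insulin signalling genes passed the unpaired limma fit, and 2 genes of each list passed the paired fit. At an unadjusted P below 0.05 there were 5, 5 and 3 higher and 5, 0 and 2 lower genes without pairing. Neurl1a, a ubiquitin ligase of Notch ligands, had 236, 200.1 and 164 in CD24negTomato+ and 38.97, 40.4 and 36.6 in Tomatoneg libraries (log2 fold change 2.33, adjusted P = 0.0517, 0.0377 paired), and Dtx4, of the Deltex family, had 359.5, 399 and 540.2 in CD24negTomato+ and 706, 930.5 and 1158 in Tomatoneg libraries (log2 fold change -1.10, adjusted P = 0.0342 paired). Dll1, a ligand that secretory progenitors present, had 2107, 1504 and 1239 in CD24negTomato+ and 1852, 1179.7 and 884 in Tomatoneg libraries and did not separate. Id2 and Id3, targets of BMP signals, were higher in the paired fit, with 1772, 1915 and 1442 in CD24negTomato+ and 963, 622 and 487 in Tomatoneg libraries for Id2 (log2 fold change 1.35, adjusted P = 0.0800, 0.0255 paired). Igf1r, the IGF-1 receptor, had 44.6, 70.2 and 51.7 in CD24negTomato+ and 178, 291 and 334 in Tomatoneg libraries (log2 fold change -2.23, adjusted P = 0.0630, 0.0347 paired), and the scavenger receptor Igf2r had 4165, 3516 and 3178 in CD24negTomato+ and 2770.2, 2253 and 1838 in Tomatoneg libraries (log2 fold change 0.67, adjusted P = 0.0424 paired). Among 43 lysosome and autophagy genes limma gave no call in either fit, and 2 were higher at an unadjusted P below 0.05 without pairing. The Notch and lysosome medians, 0.11 and 0.05, changed sign with equal library totals.

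For the chemokine, matrix and cholesterol lists, calls stand beside 4.34% higher and 2.96% lower genes over all tested genes in the paired fit. Their counts lie near these shares. Of 20 chemokine and cytokine genes none passed the unpaired limma fit (4 higher and 1 lower at an unadjusted P below 0.05). In the paired fit 1 was higher and 1 lower. The one that rose was Ccl6, which is also on the goblet list, with 25843, 34914 and 31174 in CD24negTomato+ and 1535, 6524 and 7676 in Tomatoneg libraries (log2 fold change 2.84, adjusted P = 0.0631, 0.0183 paired), and the one that fell was Ccl5, a lymphocyte chemokine, with 153, 70.2 and 272 in CD24negTomato+ and 438, 1559 and 1269 in Tomatoneg libraries (log2 fold change -2.73, adjusted P = 0.0857, 0.0456 paired). Of 27 matrix and mesenchymal genes 1 was higher in the paired fit, the intermediate filament Vim with 437, 773 and 539.7 in CD24negTomato+ and 219, 371 and 216 in Tomatoneg libraries (log2 fold change 1.12, adjusted P = 0.0485 paired), and 20 others of that list were left untested for low counts. The adhesion protein Cdh1 had 23671, 23126 and 23154 in CD24negTomato+ and 22867, 21754 and 20897 in Tomatoneg libraries and passed in neither fit (adjusted P = 0.853, 0.635 paired). Of 25 cholesterol synthesis genes 1 was higher in the paired fit, Hmgcs1 with 7808, 8733 and 5818 in CD24negTomato+ and 5439, 3187 and 1451 in Tomatoneg libraries (log2 fold change 1.33, adjusted P = 0.203, 0.0468 paired).

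Protease inhibitors were higher as a small group of large changes, with 6 of 24 in the unpaired fit and 7 in the paired fit and without Tomatoneg replicate 1. Ambp, the precursor of bikunin, had 1684, 1502 and 645 in CD24negTomato+ and 34.3, 35.5 and 18.2 in Tomatoneg libraries (log2 fold change 5.34, standard error 0.50, adjusted P = 0.00602). Serpina1b had 3983, 1229.8 and 1650.5 in CD24negTomato+ and 429, 212 and 299.8 in Tomatoneg libraries (log2 fold change 2.73, adjusted P = 0.0451), and Serpina1e had 653, 463 and 327 in CD24negTomato+ and 0, 11.7 and 4.61 in Tomatoneg libraries (adjusted P = 0.0232). Serpina1d had 179.7, 118 and 79.3 in CD24negTomato+ libraries and was listed at 0 in all Tomatoneg libraries. The Serpina1 genes are near-identical copies of alpha-1-antitrypsin, so the division of reads among them is uncertain. Spint2, a protease inhibitor of epithelial cells, had 21598, 18682 and 22468 in CD24negTomato+ and 19004, 16891 and 22423 in Tomatoneg libraries, with overlapping ranges.

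The other genes among the 15 largest rises were mostly in no list. Frmd3, a FERM domain protein, had 596, 443 and 127 in CD24negTomato+ and 0, 7.63 and 0 in Tomatoneg libraries (adjusted P = 0.0272), Ptgdr, a prostaglandin D2 receptor, had 375, 333 and 242 in CD24negTomato+ and 0, 21.7 and 1.07 in Tomatoneg libraries (adjusted P = 0.0494), and Slc8a1, a sodium-calcium exchanger, had 206, 305 and 59.6 in CD24negTomato+ and 0, 5.43 and 0 in Tomatoneg libraries (adjusted P = 0.0445). Each was listed at 0 in at least 1 Tomatoneg library. Tril, a regulator of Toll-like receptors, had 164, 171 and 92.8 in CD24negTomato+ and 0, 3.26 and 0 in Tomatoneg libraries (adjusted P = 0.0247). Sytl5, a synaptotagmin-like Rab27 effector, had 198, 354 and 98.3 in CD24negTomato+ and 0, 8.76 and 0 in Tomatoneg libraries (adjusted P = 0.0445). Cerkl, Col6a5 and Smarca1 were listed at 0 in all Tomatoneg libraries and had 104, 266 and 38.6, 108, 184 and 53.04 and 71.3, 227 and 27.1 in CD24negTomato+ libraries, respectively. The annotated span of Cerkl contains that of Neurod1 on the same strand, and the division of reads between them was not tested. Gm5159 had 142, 556 and 506 in CD24negTomato+ and 0, 4.94 and 2.43 in Tomatoneg libraries and Pzp, an alpha-2-macroglobulin relative, had 1929.7, 2966 and 821 in CD24negTomato+ and 43.5, 7.29 and 5.14 in Tomatoneg libraries. Ppy, pancreatic polypeptide, had 176, 435 and 1827 in CD24negTomato+ libraries and was listed at 0 in all Tomatoneg libraries. At the other end Rps27a-ps3, a processed pseudogene of a ribosomal protein gene, was listed at 0 in all CD24negTomato+ libraries and had 975, 369.9 and 387 in Tomatoneg libraries. As a near copy of its parent gene it can take or lose reads in the estimation.

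Lymphocyte genes were lower in CD24negTomato+ cells. Of 31 tested intraepithelial lymphocyte and T cell genes, all with a negative log2 fold change (median -2.68), 5 fell in the unpaired fit, 14 in the paired fit and 21 without Tomatoneg replicate 1. The summed share of the 33 listed genes, tested or not, was 0.00421% to 0.00756% of counts in CD24negTomato+ and 0.0257% to 0.0764% in Tomatoneg libraries. Cd8a, the coreceptor of cytotoxic T cells, had 60.7, 35.3 and 43.5 in CD24negTomato+ and 239.6, 708 and 402 in Tomatoneg libraries (log2 fold change -3.14, adjusted P = 0.0372). Cd7 had 149, 67.1 and 83.4 in CD24negTomato+ and 873, 1486 and 507 in Tomatoneg libraries (log2 fold change -3.19, adjusted P = 0.0325). Gzmb, granzyme B, had 98.5, 90.1 and 207 in CD24negTomato+ and 479.5, 1301 and 1026 in Tomatoneg libraries (log2 fold change -2.80, adjusted P = 0.0477). Itgb2, a leukocyte integrin chain, had 10.9, 11.8 and 15.1 in CD24negTomato+ and 491, 166 and 111 in Tomatoneg libraries (log2 fold change -3.96, adjusted P = 0.0445), and Laptm5, a lysosomal protein of blood cells, had 60.7, 25.9 and 123 in CD24negTomato+ and 449.7, 711 and 840.1 in Tomatoneg libraries (log2 fold change -3.45, adjusted P = 0.0441). No CD24negTomato+ value of these 5 genes reached the lowest Tomatoneg value. Leukocyte genes outside the list were among the 15 largest falls, namely Lsp1 with 29.8, 13.4 and 33.8 in CD24negTomato+ and 317, 277 and 280.4 in Tomatoneg libraries, Selplg with 24.02, 20.9 and 33.4 in CD24negTomato+ and 414, 229 and 233 in Tomatoneg libraries, Ctsw with 26.5, 14.2 and 28.3 in CD24negTomato+ and 148, 311 and 224 in Tomatoneg libraries and Il2rg with 17.9, 12.5 and 22.5 in CD24negTomato+ and 174, 176 and 136 in Tomatoneg libraries, with adjusted P values of 0.0233, 0.0232, 0.0413 and 0.0403.

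Of 22 B and plasma cell genes 1 fell in the unpaired fit, 7 in the paired fit and 11 without Tomatoneg replicate 1. Ighm, the heavy chain of IgM, had 52.2, 15.8 and 12.7 in CD24negTomato+ and 365, 1055 and 594 in Tomatoneg libraries (log2 fold change -4.73, adjusted P = 0.0216), and Igkc, the kappa light chain, had 96.5, 264 and 476 in CD24negTomato+ and 1175, 5087 and 7339 in Tomatoneg libraries (log2 fold change -3.93, adjusted P = 0.0614, 0.00137 paired). Of 72 immunoglobulin variable segments 1 fell in the unpaired fit, Igkv1-110 with 0, 0 and 4.49 in CD24negTomato+ and 58.5, 274 and 403 in Tomatoneg libraries (adjusted P = 0.0393), 2 in the paired fit and 44 without Tomatoneg replicate 1. Macrophage, class II antigen presentation, endothelial and stromal, acinar and erythrocyte lists, with 13, 10, 8, 15 and 5 tested genes, gave no call in either limma fit (1, 0, 0, 1 and 0 higher genes and 2, 0, 0, 0 and 2 lower genes at an unadjusted P below 0.05 without pairing). The class II chaperone Cd74 had 5543, 2797 and 28319 in CD24negTomato+ and 5562, 7845 and 40341 in Tomatoneg libraries, with the highest values in replicate 3 of both populations. Of 12 islet genes 4 were higher in the paired fit, including Ucn3 with 101, 83.6 and 74.2 in CD24negTomato+ and 0, 2.17 and 4.27 in Tomatoneg libraries (adjusted P = 0.0512, 0.0423 paired), and 2 of these 4, Ucn3 and Ffar1, are also expressed by gut endocrine cells and stand in other lists. The mean log2(normalized count + 1) of the 12 was 7.24, 7.40 and 8.39 in CD24negTomato+ and 4.09, 5.83 and 5.08 in Tomatoneg libraries. This mean and the values of Iapp, Pcsk2 and Ppy were highest in CD24negTomato+ replicate 3. The part of islet cells in these genes was not tested. Ret, a growth factor receptor of enteric neurons and also of endocrine cells, was the 1 of 6 neuronal and glial genes that passed, with 847, 891 and 596 in CD24negTomato+ and 161, 135 and 105 in Tomatoneg libraries (log2 fold change 2.53, adjusted P = 0.0164). The part of leukocyte and other cells in the differences of tuft, cell cycle and stem cell genes was not tested.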

How the data were processed

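Gene-level values came from 1 deposited table of 6 libraries. The authors enriched mRNA by poly-A capture, converted reads with bcl2fastq 2.19, estimated counts with kallisto 0.44.0 (GRCm38 per the labels) and normalized them with DESeq2 (sleuth is also named), so the deposited signal is a count divided by a size factor. Whole reads could not be recovered from it, as 18.2% to 34.5% of low values fell within 0.01 of a multiple of the most common low value, which was taken as 1 read to estimate depth. Floors of 3 reads cover counting error only.

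Genes with a mean of at least 10 were tested with limma 3.58.1 in R 4.3.3 (eBayes with trend, two-sided) on log2(normalized count + 1), and the scripts were tested on simulated data. The unpaired fit was the main one. Same-numbered libraries deviated together from their group means (r = 0.302, 0.291 and 0.342 across genes for numbers 1, 2 and 3), so the numbers were taken to pair the libraries. The pairing comes from the labels, and no source used here says whether same-numbered libraries share mice or a sort.

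The lists, and the genes named, were chosen with earlier results of these data known. Named were up to 6 members a list with the largest change that passed either fit with 1 sign in all pairs, the 2 highest expressed, the 15 largest rises and falls, Foxo1, Cd24a, Epcam and Neurog3. Further genes were chosen after their values were seen. Symbols were matched to GENCODE M21 (98.2%) and promoter windows to RefSeq (GRCm38.p6, 10299 tested genes). Alternatives were other pseudocounts, filters, scalings, variance models and library subsets. The CD24+Tomato+ libraries were not used here, and a few genes are not reported here. Plots were drawn with matplotlib 3.10.9 in Python 3.11.15.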

Additional observations from a re-analysis of the deposited data

How the results depend on the processing

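The unpaired fit gave 134 higher and 43 lower genes, 79 of them list members. With a pseudocount of 0.1 there were 19 lower genes, and with 10 there were 314 higher and 101 lower genes and 144 members. Without the filter on low values 28 genes were lower. The replicate block gave 582 higher, 397 lower and 280 members. Quantile normalization gave 304, 190 and 165, limma without a trend gave 95 lower genes, and array weights gave 819, 702 and 372. Leaving out 1 library at a time gave 8 to 535 higher genes, 1 to 381 lower genes and 6 to 289 members, with the lowest counts without CD24negTomato+ replicate 2 and the highest without Tomatoneg replicate 1. Without the libraries numbered 1 of both populations, 2 against 2, limma called 0 higher, 0 lower and 0 members, although at an unadjusted P below 0.05 1445 genes were higher and 1258 lower. The block combined with equal library totals, added after seeing the data, gave 477, 822 and 323, and with quantile normalization 856, 783 and 385. The cause of these shifts was not tested. All 177 genes remained with the block, with array weights and without Tomatoneg replicate 1, whereas 9 remained without CD24negTomato+ replicate 2. Other settings stayed within 1.5 times. The 66 named genes that passed the unpaired fit kept their direction in every setting tried. Genes were named largely for a large change with 1 sign in all pairs. That outcome was therefore mostly set by the choice and is no test of stability. With 3 libraries a group and Tomatoneg replicate 1 at lower gene detection, genes near the floor of 3 reads have poorly fixed fold changes.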

Other observations

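Of the 177 genes that passed the unpaired fit, 98 were in no list. The following examples were chosen after their values were seen and are given as values. S100a6, a calcium-binding protein, had 7718, 9919 and 7643 in CD24negTomato+ and 885, 742 and 853 in Tomatoneg libraries (log2 fold change 3.34, adjusted P = 0.00281). Tm4sf4, a tetraspan membrane protein, had 8642, 7220.4 and 5199.5 in CD24negTomato+ and 672, 539.8 and 370.3 in Tomatoneg libraries (log2 fold change 3.74, adjusted P = 0.00571). Hepacam2, an immunoglobulin-like adhesion protein, had 8153, 10563 and 5256 in CD24negTomato+ and 829.8, 1013 and 571 in Tomatoneg libraries (log2 fold change 3.29, adjusted P = 0.00788). The tight junction protein Cldn4 had 2574, 3188 and 2266 in CD24negTomato+ and 144, 461 and 365 in Tomatoneg libraries (log2 fold change 3.19, adjusted P = 0.0197), and the growth factor receptor Fgfr2 had 2098, 2504 and 1728 in CD24negTomato+ and 173, 431 and 439 in Tomatoneg libraries (log2 fold change 2.70, adjusted P = 0.0248). Adgrg4, an adhesion G protein-coupled receptor, had 2470.5, 3904 and 778 in CD24negTomato+ and 40.1, 52.8 and 23.6 in Tomatoneg libraries (log2 fold change 5.69, adjusted P = 0.0108). None of these 6 overlapped between populations.

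Among off-list genes that fell were several with roles in replication and chromatin. Dut, which keeps uracil out of DNA, had 106, 144 and 191 in CD24negTomato+ and 802, 759 and 1001 in Tomatoneg libraries (log2 fold change -2.56, adjusted P = 0.0164). The maintenance DNA methyltransferase Dnmt1 had 474, 597 and 683 in CD24negTomato+ and 1340.1, 1483 and 1741 in Tomatoneg libraries (log2 fold change -1.39, adjusted P = 0.0494). Rpa1, which binds single-stranded DNA, had 303, 400.3 and 400.0 in CD24negTomato+ and 950.1, 1087 and 1274 in Tomatoneg libraries (log2 fold change -1.58, adjusted P = 0.0393), and the histone chaperone Asf1b had 50.9, 101 and 133 in CD24negTomato+ and 442, 451 and 719 in Tomatoneg libraries (log2 fold change -2.55, adjusted P = 0.0494).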
